A study of Mus musculus with 18 samples.

Results

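The genes described here are 33 genes of the p53 pathway, measured by RNA-seq in mouse fibroblasts before and after tumour necrosis factor α (TNFα). They were listed by name, as p53 itself, its direct regulators and widely used p53 target genes, and taken as measured where their level reached 1 FPKM in 2 or more libraries. Of the 33, 32 were measured and belong to the 12342 genes tested in the series, and Gdf15, a secreted stress cytokine, was listed at 0 in all 18 libraries. All cells were immortalized mouse embryonic fibroblasts that lack their own RelA (rela-/-) and carry a retroviral pBABE-puro construct. RelA(TA2) cells carried RelA with L449A and F473A in its TA2 activation region, RelA(S276A) cells carried RelA with S276A in its Rel homology region, and RelA(wt) cells carried the unmutated protein. Each mutation was designed to disturb a contact of RelA with the coactivators CBP and p300. Each line was sampled before TNFα (0 h) and after 1 h and 2 h of 5 ng/ml TNFα, with 2 libraries per condition and 9 conditions. Each allele was studied in 1 reconstituted line, so the allele and other differences between lines cannot be told apart.

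The transcription factor p53 is held at a low level by the ubiquitin ligase Mdm2, whose own gene it activates, so that the pair forms a negative feedback loop. When DNA damage or other stress releases p53 from Mdm2, it raises genes that stop the cell cycle (Cdkn1a, Btg2, Gadd45a), genes that start mitochondrial cell death (Pmaip1, Bbc3, Bax), death receptors (Fas, Tnfrsf10b) and genes of metabolism and DNA repair. Many of these genes also respond to other signals without p53, and Gadd45b and Fas are known NF-κB targets. TNFα acts through NF-κB, whose subunit RelA was altered here. The protein level, sequence and activity of p53 were not analysed here.

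Values are gene FPKM, fragments per kilobase of transcript and per M (mega) mapped fragments, summed over the transcripts assembled on a gene. The libraries held 25.3 to 31.3 M mapped fragments. Rela itself had 315 to 366 FPKM in RelA(TA2) libraries, 174 to 211 FPKM in RelA(S276A) libraries and 156 to 187 FPKM in RelA(wt) libraries, and the higher Rela level in RelA(TA2) cells accompanies each difference of that line given below. Its part in them was not tested. These are levels of the message. The paper reports that RelA protein was lower in RelA(S276A) cells than in RelA(wt) cells. The part of that lower protein level in the differences of RelA(S276A) cells was not tested either. All 12 fibroblast markers were measured, with a summed level of 4018 to 5486 FPKM. The 7 macrophage markers summed to 15.6 to 38.4 FPKM with 3 of them at 0 in all libraries, and the endothelial, epithelial, muscle, fat and nerve lists each summed to at most 26.0 FPKM. A change is called where limma gave an adjusted p under 0.05 over all 12342 genes on log2(FPKM + 0.5), a scale that understates the change of low genes. Because summed FPKM depends on how a gene was cut into transcripts, the fragments behind each value were also recovered and are given per M fragments in genes. With these, the median standard deviation between libraries of 1 condition was 0.06 on the log2 scale, against 0.11 with FPKM. The study describes the replicates as independent. The p-values cover the spread between the 2 libraries of each condition.

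The start regions of 4 genes are shown because they match the DNA letters of the p53 or NF-κB consensus and belong to genes whose levels are followed below. Each is the RefSeq window of 300 bases, 250 before and 50 after the annotated start, on GRCm38.p6, read 5′ to 3′ on the gene's strand. Capitals mark each match, on either strand, to the 10-base p53 half-site consensus or the 10-base κB consensus. Mdm2 lies on the minus strand (chr10:117710709-117711008), and its only match was a p53 half-site starting at base -186 from the start.
Mdm2: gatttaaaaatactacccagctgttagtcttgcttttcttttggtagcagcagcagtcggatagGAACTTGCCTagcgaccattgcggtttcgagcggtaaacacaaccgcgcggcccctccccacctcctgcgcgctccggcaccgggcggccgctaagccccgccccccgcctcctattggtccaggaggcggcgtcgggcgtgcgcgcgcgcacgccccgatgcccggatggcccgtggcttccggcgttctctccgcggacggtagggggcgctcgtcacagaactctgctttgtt
Cdkn1a lies on the plus strand, and its upstream window, shown here (chr17:29090729-29091028), held 2 p53 half-sites, at -73 and -51. Its window at a start further downstream (chr17:29093519-29093818) held neither motif.
Cdkn1a: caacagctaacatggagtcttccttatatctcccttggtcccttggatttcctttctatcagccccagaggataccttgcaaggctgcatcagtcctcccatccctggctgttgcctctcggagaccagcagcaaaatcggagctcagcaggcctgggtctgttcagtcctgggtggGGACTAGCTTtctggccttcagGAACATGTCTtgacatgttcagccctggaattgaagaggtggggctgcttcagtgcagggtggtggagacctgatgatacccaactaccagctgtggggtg
Gadd45a lies on the minus strand (chr6:67037358-67037657) and held 1 p53 half-site, at -40.
Gadd45a: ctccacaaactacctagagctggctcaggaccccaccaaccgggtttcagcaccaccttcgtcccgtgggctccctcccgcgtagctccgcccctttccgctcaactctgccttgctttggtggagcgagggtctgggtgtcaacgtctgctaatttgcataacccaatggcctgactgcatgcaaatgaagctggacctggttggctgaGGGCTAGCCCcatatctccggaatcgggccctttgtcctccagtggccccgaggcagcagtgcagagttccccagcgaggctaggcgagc
Trp53, the gene of p53, lies on the plus strand (chr11:69580109-69580408) and held 1 p53 half-site at -75 and 1 κB match at -5.
Trp53: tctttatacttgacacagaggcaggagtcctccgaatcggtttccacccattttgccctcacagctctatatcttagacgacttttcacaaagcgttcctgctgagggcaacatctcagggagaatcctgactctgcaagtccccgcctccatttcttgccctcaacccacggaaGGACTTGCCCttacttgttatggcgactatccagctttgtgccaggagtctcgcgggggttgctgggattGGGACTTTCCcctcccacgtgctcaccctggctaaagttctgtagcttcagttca
Of the 33 members, 25 had a window, and 12 of these 25 (48.0%) held a p53 half-site in at least 1 window, against 9.55% of the 27025 genes with a window. A κB match was found for 2 of the 25 members, Trp53 and Bbc3, against 9.55% of all genes. The 2 motifs did not overlap in these windows. Btg2 and Plk2, the members with the largest rises after 1 h, had a window with neither motif. A match is a run of letters and was not tested for binding.

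After 1 h of TNFα a small group of arrest and death genes was higher in every line, led by Btg2 and Plk2, and at 2 h the values of most of that group were nearer to those before TNFα. In RelA(TA2) cells 4 of the 32 measured members rose at 1 h, against 1.11% of all genes tested, and 1 fell, against 0.883%. For RelA(S276A) cells 5 rose, against 0.94% of all genes, and 1 fell, against 0.559%. For RelA(wt) cells 6 rose, against 1.04% of all genes, and 1 fell, against 0.583%. Btg2, Plk2 and Pmaip1 rose in all 3 lines. The median log2 difference of the members at 1 h was 0.003 in RelA(TA2) cells, 0.16 in RelA(S276A) cells and 0.06 in RelA(wt) cells. For all genes it was -0.07, 0.0 and -0.01. At 1 h 25 of the 32 members passed no test in RelA(wt) cells.

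At 2 h the calls were divided between higher and lower members. In RelA(TA2) cells 2 members rose, against 1.9% of all genes, and 6 fell, against 2.16%. In RelA(S276A) cells 2 rose, against 0.697%, and 2 fell, against 0.292%. In RelA(wt) cells 3 rose, against 1.41%, and 4 fell, against 0.486%. Fas rose and Ccng2 and Zmat3 fell in all 3 lines. The members' median log2 difference was -0.19 in RelA(TA2) cells, -0.03 in RelA(S276A) cells and -0.18 in RelA(wt) cells, beside -0.05, -0.04 and -0.04 for all genes. Refitting on only the libraries of the compared groups left 6 of the 48 member calls made over the 6 comparisons with 0 h and the 6 comparisons between lines, so the calls rest on the spread shared by all 18 libraries. Refitting without each library in turn kept 27 of the 48 in every refit, and the others are named with their gene below.

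**Figure D1:**
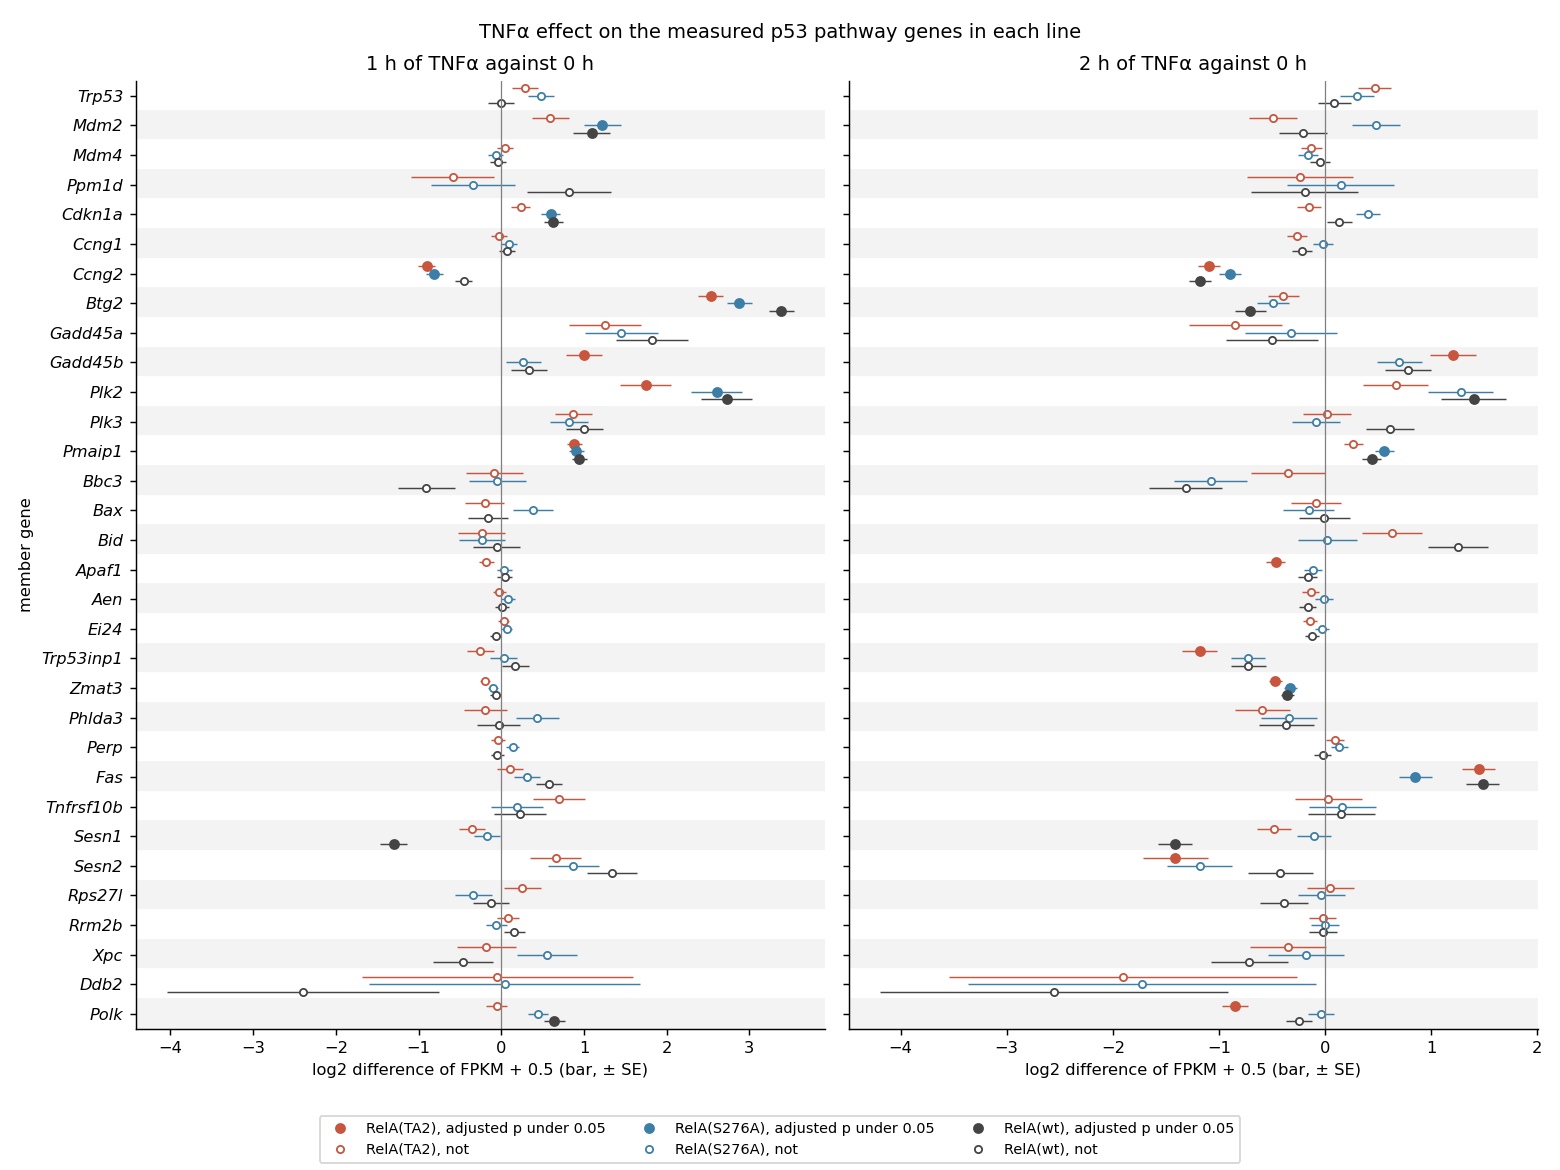
Difference on the log2(FPKM + 0.5) scale (x axis, bar ± SE) of each of the 32 measured members at 1 h (left panel) and 2 h (right panel) of TNFα against 0 h, with 2 libraries per condition and filled points for an adjusted p under 0.05. Btg2, Plk2 and Pmaip1 lie right of 0 in all 3 lines at 1 h, Fas lies right of 0 and Ccng2 and Zmat3 left of 0 in all 3 lines at 2 h, and Ddb2, listed at 0 in 4 libraries, has wide bars.

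Among p53 and its direct regulators, Mdm2 rose at 1 h and the message of p53 itself passed no test. Trp53 ranged over 65.5 to 106 FPKM in the 18 libraries (median 82.8), and none of its 12 comparisons with 0 h or with RelA(wt) passed. Its largest log2 difference from 0 h was 0.48 ± 0.16 (SE) at 1 h in RelA(S276A) cells, with 91.8 and 95.5 FPKM at 1 h and 68.4 and 65.5 FPKM at 0 h (adjusted p = 0.27). By fragments Trp53 lay between 140 and 216 per M with no comparison called. In RelA(S276A) cells it had 215.5 and 167.5 per M at 1 h and 197.4 and 166.4 per M at 0 h. These pairs overlap, so the separation by FPKM was not seen by fragments. Mouse genomes also hold a processed copy of Trp53, so reads of the 2 could be shared.

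Mdm2 had 256 and 212 FPKM at 1 h and 145 and 164 FPKM at 0 h in RelA(TA2) cells. RelA(S276A) cells had 243 and 356 FPKM at 1 h and 127 and 125 FPKM at 0 h. RelA(wt) cells had 280 and 288 FPKM at 1 h and 133 and 132 FPKM at 0 h. In each line both libraries at 1 h lay above both at 0 h. The log2 difference was 0.59 ± 0.23 in RelA(TA2) cells (adjusted p = 0.28), 1.22 ± 0.23 in RelA(S276A) cells (adjusted p = 0.022) and 1.10 ± 0.23 in RelA(wt) cells (adjusted p = 0.039). By 2 h Mdm2 was at 115 and 104 FPKM in RelA(TA2) cells, 135 and 230 FPKM in RelA(S276A) cells and 114 and 116 FPKM in RelA(wt) cells. The higher RelA(S276A) libraries at 1 h and 2 h, both replicate 2, were each assembled in 3 transcripts and the replicate 1 libraries in 2. Fragments gave tighter pairs at 1 h, with 668 and 707 per M in RelA(TA2) cells, 796 and 889 per M in RelA(S276A) cells and 933 and 920 per M in RelA(wt) cells. On that measure Mdm2 rose in all 3 lines at 1 h, by 0.59, 1.03 and 1.14. The FPKM call in RelA(wt) cells was lost in 14 of 18 refits without 1 library (values of 1.08 to 1.11), and the call in RelA(S276A) cells was lost without either 0 h library or without 1 h replicate 2 (0.94 to 1.496).

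The other regulators passed in no comparison by FPKM. Mdm4, an Mdm2 relative that binds and restrains p53, ranged from 10.8 to 14.7 FPKM. Ppm1d, the phosphatase that switches p53 signalling off, ranged from 5.41 to 17.2 FPKM, and its 7 libraries with 2 assembled transcripts were those above 10 FPKM. By fragments Ppm1d fell in RelA(TA2) cells at 1 h (-0.65 ± 0.14) and in RelA(wt) cells at 2 h (-0.54 ± 0.14), and Mdm4 was called only between lines.

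Among the cell cycle genes, Btg2, an antiproliferative gene that is also a classical immediate-early gene, had the largest rise of all members. It had 75.3 and 91.5 FPKM at 1 h and 13.4 and 14.5 FPKM at 0 h in RelA(TA2) cells. RelA(S276A) cells had 104 and 86.9 FPKM at 1 h and 12.9 and 12.1 FPKM at 0 h. RelA(wt) cells had 175 and 182 FPKM at 1 h and 16.5 and 16.9 FPKM at 0 h. The groups stood far apart in each line, and the rise was 5.78-fold in RelA(TA2) cells (log2 2.53 ± 0.15, adjusted p = 6.6e-06), 7.35-fold in RelA(S276A) cells (2.88 ± 0.15, adjusted p = 3.3e-06) and 10.4-fold in RelA(wt) cells (3.38 ± 0.15, adjusted p = 3.4e-07). At 2 h every Btg2 library lay below those of its line before TNFα, with 9.60 and 11.5 FPKM in RelA(TA2) cells, 9.24 and 8.37 FPKM in RelA(S276A) cells and 8.72 and 11.6 FPKM in RelA(wt) cells. It fell by 0.70 ± 0.15 against 0 h in RelA(wt) cells (adjusted p = 0.044), a call lost in 11 of 18 refits without 1 library (-0.90 to -0.51).

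Plk2, a polo-like kinase of the stress response, had 87.6 and 101 FPKM at 1 h and 34.2 and 22.5 FPKM at 0 h in RelA(TA2) cells. It had 136 and 149 FPKM at 1 h and 22.7 and 23.3 FPKM at 0 h in RelA(S276A) cells. It had 123 and 125 FPKM at 1 h and 17.4 and 19.3 FPKM at 0 h in RelA(wt) cells. All 1 h libraries lay above all 0 h libraries, and the log2 difference was 1.74 ± 0.31 in RelA(TA2) cells (adjusted p = 0.015), 2.61 ± 0.31 in RelA(S276A) cells (adjusted p = 0.0013) and 2.72 ± 0.31 in RelA(wt) cells (adjusted p = 6.3e-04). The RelA(TA2) call was lost without replicate 2 of either time (1.45 to 2.04). At 2 h Plk2 had 43.4 and 45.2 FPKM in RelA(TA2) cells, 60.5 and 52.8 FPKM in RelA(S276A) cells and 32.2 and 75.2 FPKM in RelA(wt) cells. The RelA(wt) rise at 2 h (1.40 ± 0.31, adjusted p = 0.049) was lost in 15 of 18 refits (0.80 to 2.01), and the library at 75.2 FPKM held 2 assembled transcripts where its partner held 1. By fragments those 2 libraries had 94.5 and 103 per M, against 50.4 and 55.5 per M at 0 h, a log2 difference of 0.89.

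Cdkn1a, the cyclin-dependent kinase inhibitor p21, rose less than Btg2 or Plk2. It had 163 and 162 FPKM at 1 h and 130 and 147 FPKM at 0 h in RelA(TA2) cells. It had 195 and 188 FPKM at 1 h and 126 and 127 FPKM at 0 h in RelA(S276A) cells. It had 191 and 184 FPKM at 1 h and 120 and 122 FPKM at 0 h in RelA(wt) cells. The groups did not overlap in any line, and the log2 difference was 0.24 ± 0.11 in RelA(TA2) cells (adjusted p = 0.43), 0.60 ± 0.11 in RelA(S276A) cells (adjusted p = 0.025) and 0.63 ± 0.11 in RelA(wt) cells (adjusted p = 0.020). At 2 h it was at 127 and 121 FPKM in RelA(TA2) cells, 144 and 194 FPKM in RelA(S276A) cells and 135 and 131 FPKM in RelA(wt) cells. Both 1 h calls were lost when any of their own 4 libraries was left out, with values of 0.57 to 0.63 in RelA(S276A) cells and 0.60 to 0.66 in RelA(wt) cells.

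The Gadd45 genes encode small proteins that bind stress kinases, and 2 of them were members with unlike time courses. Gadd45b had 43.1 and 37.4 FPKM at 1 h, 41.8 and 51.9 FPKM at 2 h and 23.3 and 16.9 FPKM at 0 h in RelA(TA2) cells, and rose at both times (1.00 ± 0.22, adjusted p = 0.044, and 1.21 ± 0.22, adjusted p = 0.012). Gadd45b in RelA(S276A) cells had 28.8 and 21.9 FPKM at 0 h, 26.5 and 34.6 FPKM at 1 h and 47.7 and 35.6 FPKM at 2 h. Gadd45b in RelA(wt) cells had 25.3 and 24.3 FPKM at 0 h, 34.3 and 28.7 FPKM at 1 h and 40.3 and 45.7 FPKM at 2 h. The 2 h values exceeded the 0 h values in both of these lines, with log2 differences of 0.70 and 0.78 that did not pass. The RelA(TA2) call at 1 h was lost in 11 of 18 refits (0.77 to 1.22) and the call at 2 h was lost without replicate 2 of either time (0.98 to 1.44). Gadd45a, chosen here after its values were seen, had 52.98 and 58.5 FPKM at 1 h in RelA(TA2) cells, 65.0 and 57.1 FPKM in RelA(S276A) cells and 83.9 and 92.5 FPKM in RelA(wt) cells, and 10.6 to 37.3 FPKM in the other 12 libraries. Its 1 h libraries lay above all others, but the log2 differences of 1.25, 1.45 and 1.82 (each ± 0.44) did not pass, and the 0 h libraries of RelA(TA2) cells stood apart at 14.2 and 37.3 FPKM. By fragments Gadd45a rose in all 3 lines at 1 h.

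Ccng2, a cyclin G known for restraining growth, was lower after TNFα in every line. In RelA(TA2) cells it had 10.6 and 9.93 FPKM at 0 h, 4.90 and 5.65 FPKM at 1 h and 4.75 and 4.32 FPKM at 2 h. In RelA(S276A) cells it had 10.7 and 11.5 FPKM at 0 h, 6.11 and 6.15 FPKM at 1 h and 6.05 and 5.48 FPKM at 2 h. In RelA(wt) cells it had 10.50 and 10.46 FPKM at 0 h, 7.58 and 7.44 FPKM at 1 h and 4.35 and 4.38 FPKM at 2 h. Every library after TNFα was below every library before it. At 2 h Ccng2 fell by 1.09 ± 0.10 in RelA(TA2) cells (adjusted p = 2.7e-04), by 0.89 ± 0.10 in RelA(S276A) cells (adjusted p = 0.0027) and by 1.18 ± 0.10 in RelA(wt) cells (adjusted p = 2.2e-04), and it had also fallen at 1 h in RelA(TA2) cells (-0.90) and RelA(S276A) cells (-0.81). These 5 falls kept their call without each library, and lost it where only the transcript with the highest FPKM was used. Its relative Ccng1 ranged from 230 to 377 FPKM and passed nowhere by either measure. Plk3, a second polo-like kinase and also chosen after its values were seen, had 17.1 to 20.5 FPKM in the 6 libraries at 1 h and 7.41 to 16.3 FPKM in the other 12, with no call by FPKM and a rise at 1 h in all 3 lines by fragments.

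**Figure D2:**
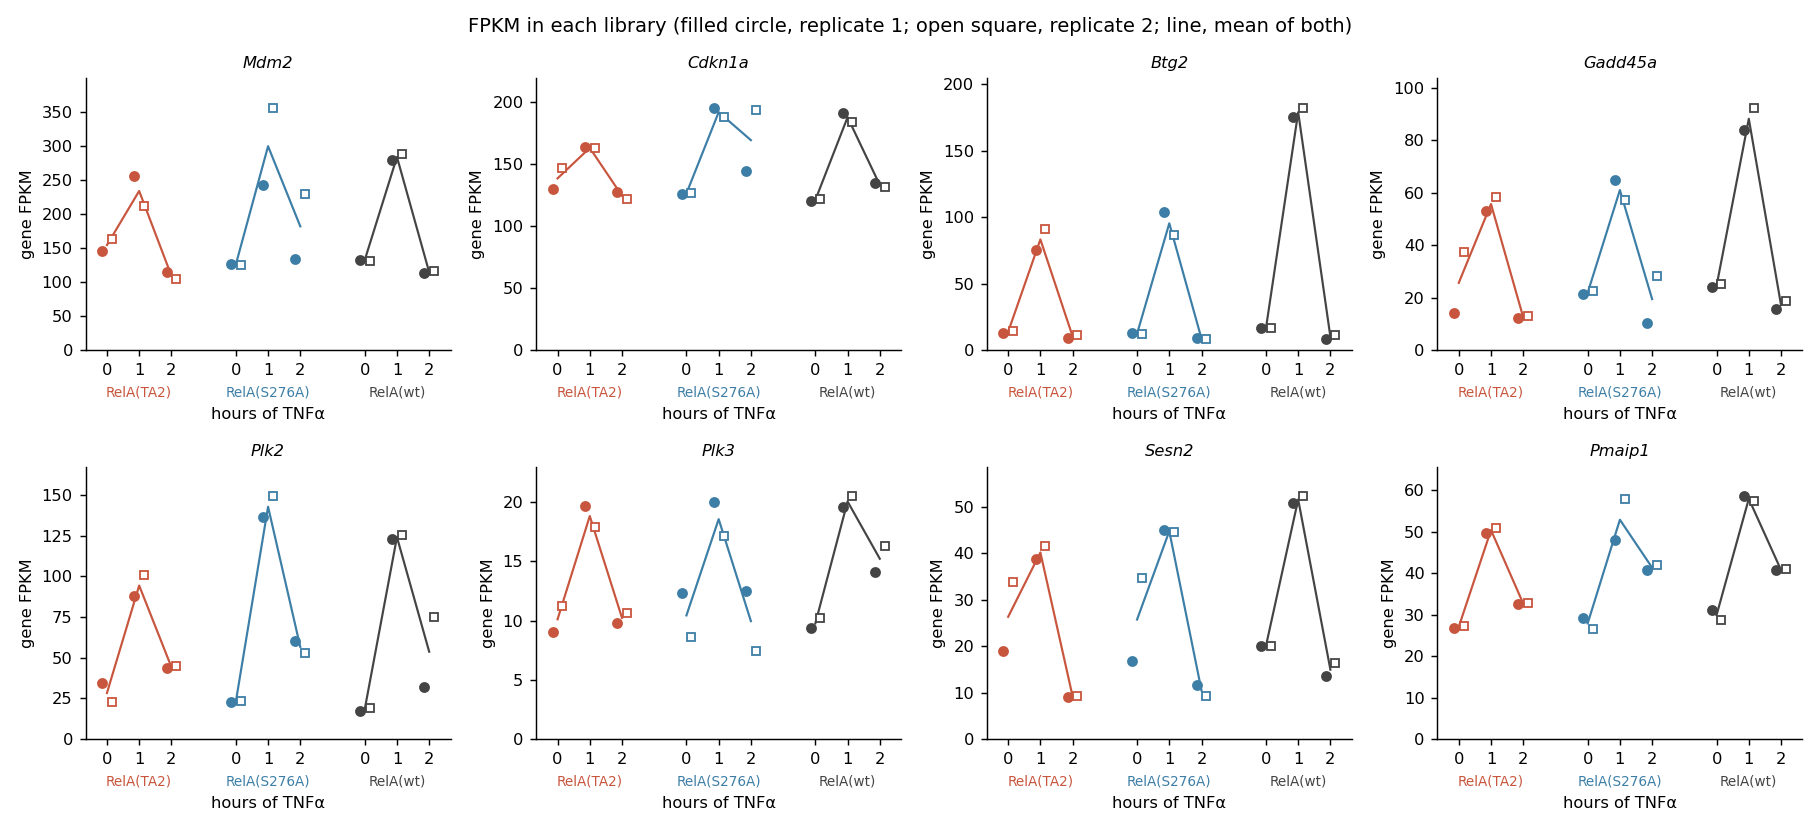
FPKM (y axis, from 0) of 8 members in each of the 18 libraries by line and hours of TNFα (x axis), with a filled circle for replicate 1, an open square for replicate 2 and a line through the means. Both libraries at 1 h lie above both libraries at 0 h and at 2 h for Btg2, Plk2, Plk3 and Pmaip1 in all 3 lines, and Btg2 reaches 175 and 182 FPKM in RelA(wt) cells.

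Of the 11 members grouped here under cell death, Pmaip1 (Noxa, a BH3-only protein) rose at 1 h in every line. It had 49.8 and 51.0 FPKM at 1 h and 26.9 and 27.3 FPKM at 0 h in RelA(TA2) cells. It had 48.0 and 57.9 FPKM at 1 h and 29.3 and 26.5 FPKM at 0 h in RelA(S276A) cells. It had 58.6 and 57.4 FPKM at 1 h and 31.2 and 28.7 FPKM at 0 h in RelA(wt) cells. The log2 rise was 0.88, 0.91 and 0.94 in these lines (each ± 0.09, adjusted p = 3.9e-04, 3.8e-04 and 1.7e-04), and it kept its call without each library. At 2 h Pmaip1 was still above 0 h, with 32.5 and 32.9 FPKM in RelA(TA2) cells, 40.8 and 42.0 FPKM in RelA(S276A) cells and 40.7 and 40.9 FPKM in RelA(wt) cells. The 2 h rise passed in RelA(S276A) cells (0.56 ± 0.09, adjusted p = 0.017, lost without 0 h replicate 2 within a range of 0.49 to 0.63) and in RelA(wt) cells (0.44 ± 0.09, adjusted p = 0.035, lost in 10 of 18 refits within 0.38 to 0.50).

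Zmat3, an RNA-binding p53 target, was a little lower at 2 h in each line. It had 21.2 and 20.9 FPKM at 2 h and 29.6 and 29.1 FPKM at 0 h in RelA(TA2) cells. It had 24.1 and 24.7 FPKM at 2 h and 30.1 and 31.3 FPKM at 0 h in RelA(S276A) cells. It had 23.6 and 22.5 FPKM at 2 h and 30.1 and 29.2 FPKM at 0 h in RelA(wt) cells. The pairs did not overlap, and Zmat3 fell by 0.47, 0.33 and 0.36 in these lines (each ± 0.06, adjusted p = 0.0025, 0.037 and 0.015). The RelA(S276A) call was lost in 10 of 18 refits (-0.36 to -0.30) and the RelA(wt) call without 0 h replicate 1 or 2 h replicate 2 (-0.39 to -0.32), and all 3 were lost where the highest transcript alone was used.

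Trp53inp1, a p53-induced gene of cell death and autophagy, and Apaf1, the scaffold of the apoptosome, were called at 2 h in RelA(TA2) cells. Trp53inp1 had 20.7 and 16.1 FPKM at 2 h and 44.9 and 39.5 FPKM at 0 h there (-1.18 ± 0.16, adjusted p = 0.0032). It had 15.8 and 21.3 FPKM at 2 h and 28.7 and 32.8 FPKM at 0 h in RelA(S276A) cells. It had 18.4 and 17.4 FPKM at 2 h and 29.9 and 29.9 FPKM at 0 h in RelA(wt) cells. The 2 h libraries were below the 0 h libraries in each line, the log2 differences of -0.73 and -0.72 in RelA(S276A) and RelA(wt) cells did not pass by FPKM (adjusted p = 0.079 and 0.059), and by fragments Trp53inp1 fell in all 3 lines. Apaf1 had 12.1 and 11.1 FPKM at 2 h and 17.0 and 15.3 FPKM at 0 h in RelA(TA2) cells (-0.46 ± 0.09, adjusted p = 0.018), a call lost without 2 h replicate 2 (-0.54 to -0.39 over all refits) and where the highest transcript alone was used.

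The remaining members of this group passed in no comparison with 0 h by FPKM, and Perp is described with the differences between lines. Bax, the pore-forming effector, ranged from 71.7 to 141 FPKM. Phlda3, an inhibitor of Akt, ranged from 51.8 to 128 FPKM, Ei24 from 36.6 to 47.4 FPKM and Aen, a nuclease, from 14.3 to 20.5 FPKM. Bbc3 (Puma, a BH3-only protein) ranged from 5.42 to 27.7 FPKM and Bid, a BH3-only protein cleaved after death receptor signalling, from 16.2 to 66.8 FPKM. The highest Bid library, RelA(wt) replicate 2 at 2 h, was assembled in 3 transcripts, and by fragments it had 55.2 per M beside 62.3 per M in its partner. By fragments Bid rose at 2 h in RelA(TA2) cells (0.75 ± 0.07) and RelA(wt) cells (0.65 ± 0.07). Bbc3 fell on that measure at 2 h in RelA(S276A) cells (-0.98 ± 0.22) and RelA(wt) cells (-0.79 ± 0.22). Phlda3 and Ei24 were called lower by fragments at 2 h in RelA(TA2) cells, and Aen at 2 h in RelA(wt) cells.

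The death receptor Fas was higher at 2 h in every line. It had 15.97 and 13.9 FPKM at 2 h and 4.59 and 5.77 FPKM at 0 h in RelA(TA2) cells. It had 5.31 and 7.26 FPKM at 2 h and 3.10 and 3.34 FPKM at 0 h in RelA(S276A) cells. It had 13.0 and 12.9 FPKM at 2 h and 4.54 and 4.07 FPKM at 0 h in RelA(wt) cells. All 2 h libraries lay above the 0 h libraries of their line, and the rise was 2.73-fold in RelA(TA2) cells (1.45 ± 0.16, adjusted p = 6.4e-04), 1.805-fold in RelA(S276A) cells (0.85 ± 0.16, adjusted p = 0.032) and 2.80-fold in RelA(wt) cells (1.49 ± 0.16, adjusted p = 6.1e-04). The RelA(S276A) call was lost in 9 of 18 refits (0.64 to 1.06). With the highest transcript alone the RelA(wt) and RelA(S276A) calls were lost. At 1 h Fas had 3.81 to 6.67 FPKM over the lines with no call. The other receptor, Tnfrsf10b, which binds TRAIL, ranged from 18.4 to 53.1 FPKM and passed nowhere by FPKM. Its next highest library had 26.0 FPKM, and the library at 53.1 FPKM was assembled in 2 transcripts where the other 17 held 1. By fragments Tnfrsf10b rose in RelA(S276A) cells at 1 h (0.25 ± 0.05) and 2 h (0.19 ± 0.05) and in RelA(wt) cells at 1 h (0.22 ± 0.05).

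The sestrins restrain the growth kinase complex mTORC1 under stress. Sesn2 had 18.9 and 33.8 FPKM at 0 h, 38.8 and 41.6 FPKM at 1 h and 9.13 and 9.28 FPKM at 2 h in RelA(TA2) cells. In RelA(S276A) cells it had 16.9 and 34.6 FPKM at 0 h, 45.0 and 44.5 FPKM at 1 h and 11.6 and 9.30 FPKM at 2 h. In RelA(wt) cells it had 20.04 and 20.09 FPKM at 0 h, 50.9 and 52.3 FPKM at 1 h and 13.48 and 16.4 FPKM at 2 h. The 1 h libraries were the highest and the 2 h libraries the lowest in each line. Only the fall at 2 h in RelA(TA2) cells passed by FPKM (-1.41 ± 0.30, adjusted p = 0.029), and it was lost without 0 h replicate 2 or without either 2 h library (-1.82 to -0.9994). By fragments the 1 h rise of Sesn2 was called in all 3 lines. The RelA(S276A) library at 34.6 FPKM was assembled in 2 transcripts and its partner in 1. By fragments that library had 61.2 per M beside 59.8 per M in its partner.

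Sesn1 had 25.1 and 23.4 FPKM at 0 h in RelA(wt) cells, 9.41 and 9.66 FPKM at 1 h and 9.37 and 8.16 FPKM at 2 h, and fell at both times by FPKM (-1.30 ± 0.16 and -1.42 ± 0.16, adjusted p = 0.0013 and 0.00105). Both 0 h libraries were assembled in 3 transcripts and the 4 later libraries in 2. By fragments Sesn1 had 34.7 and 33.1 per M at 0 h, 28.9 and 30.0 per M at 1 h and 27.3 and 25.1 per M at 2 h, and neither fall was called (-0.20 and -0.37). These were the 2 member calls of the 48 that fragments did not share. Rps27l, a p53-inducible relative of a ribosomal protein whose reads can be shared with its close copies, ranged from 189 to 386 FPKM with no call by FPKM, and by fragments it was called lower at 0 h and 1 h in RelA(TA2) cells, set against RelA(wt) cells.

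Among the repair and nucleotide supply genes, Polk, a DNA polymerase that copies past damaged bases, was called. It had 11.8 and 11.2 FPKM at 1 h and 7.23 and 7.13 FPKM at 0 h in RelA(wt) cells (0.64 ± 0.12, adjusted p = 0.027). In RelA(S276A) cells it had 9.53 and 11.1 FPKM at 1 h and 7.32 and 7.51 FPKM at 0 h, and in RelA(TA2) cells 9.73 and 9.91 FPKM at 1 h and 9.02 and 11.6 FPKM at 0 h. The 1 h and 0 h libraries overlapped in RelA(TA2) cells and not in the other lines. At 2 h Polk fell in RelA(TA2) cells to 5.64 and 5.26 FPKM (-0.85 ± 0.12, adjusted p = 0.0039). The RelA(wt) call at 1 h was lost without any of its own 4 libraries (0.61 to 0.68) and where the highest transcript alone was used. Rrm2b, a ribonucleotide reductase subunit, ranged from 3.54 to 5.36 FPKM and the damage sensor Xpc from 3.66 to 10.9 FPKM, with no call by FPKM. The Xpc library at 10.9 FPKM, RelA(wt) replicate 2 at 0 h, had 18.1 fragments per M beside 15.8 per M in its partner. By fragments Rrm2b was called lower at both times of TNFα in RelA(TA2) cells, set against RelA(wt) cells, and Xpc fell at 2 h in RelA(TA2) cells. Ddb2, a subunit of the damaged DNA binding complex, was listed at 0 in 4 libraries and at 4.26 to 14.4 FPKM in the other 14. In those 4 libraries only transcripts on the opposite strand were assembled over the gene, so no change of Ddb2 is given.

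**Figure D3:**
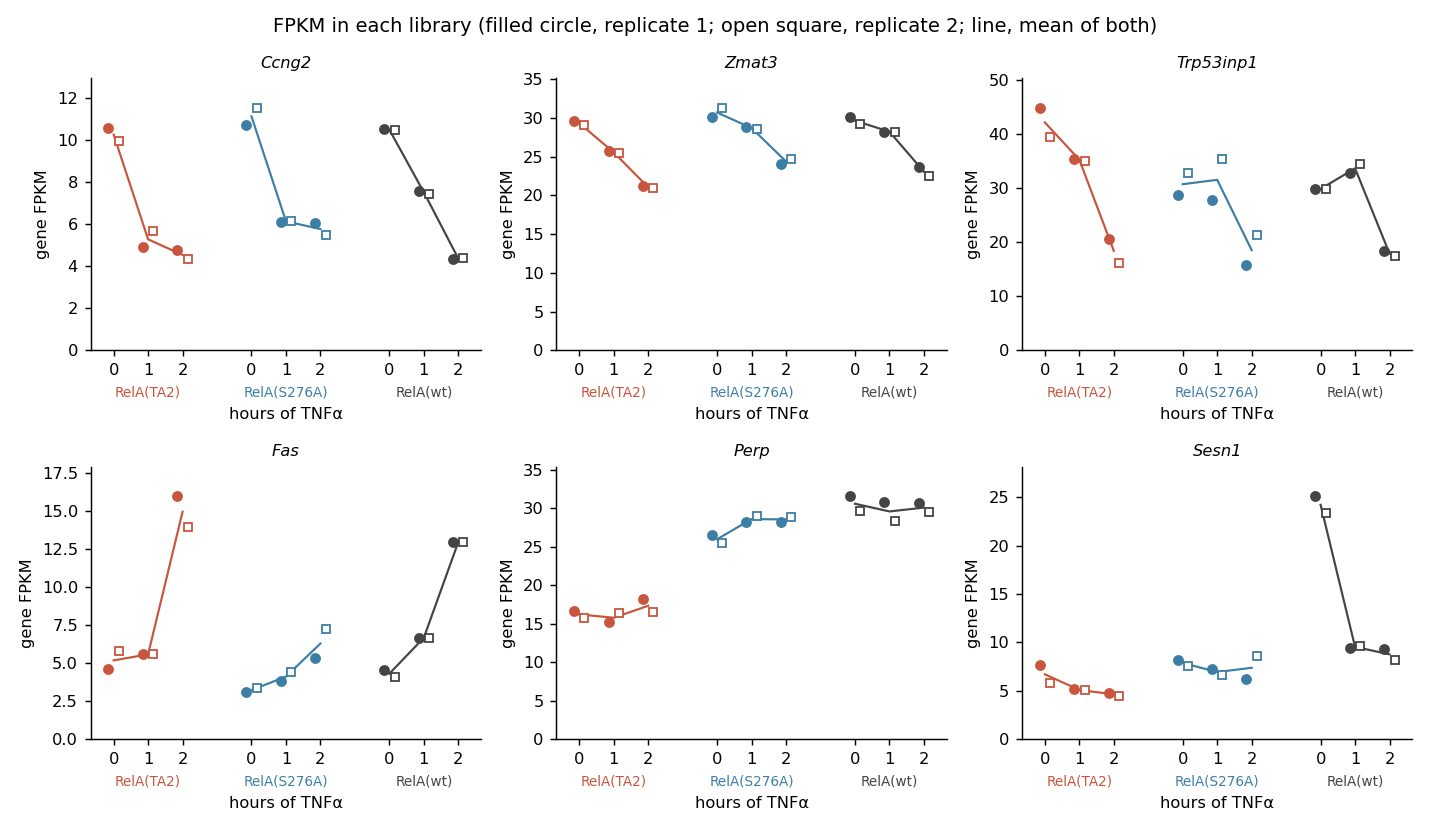
FPKM (y axis, from 0) of 6 members in each of the 18 libraries by line and hours of TNFα (x axis), with a filled circle for replicate 1, an open square for replicate 2 and a line through the means. Ccng2, Zmat3 and Trp53inp1 are lower at 2 h than at 0 h, Fas is higher, Perp is lower in RelA(TA2) cells at all 3 times, and the Sesn1 points at 25.1 and 23.4 FPKM are the RelA(wt) libraries before TNFα.

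Between lines few members differed by FPKM. The calls were those of Perp, Sesn1, Btg2, Fas and Ccng2, each lower in the mutant line than in RelA(wt) cells. The shares of all genes given here count both directions, so the direction of the members has no share beside it. RelA(TA2) cells differed in 2 of 32 members at 0 h (3.63% of all genes), 4 at 1 h (3.05%) and 2 at 2 h (3.18%). RelA(S276A) cells differed in 1 member at each time, against 2.14% of all genes at 0 h, 3.21% at 1 h and 3.44% at 2 h. The counts for RelA(S276A) cells are near the share over all genes. The comparisons of both mutants share the RelA(wt) libraries.

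Perp, a p53 target of the cell membrane, was lower in RelA(TA2) cells than in RelA(wt) cells at every time. At 0 h it had 16.7 and 15.7 FPKM in RelA(TA2) cells and 31.5 and 29.6 FPKM in RelA(wt) cells (-0.90 ± 0.08, adjusted p = 2.1e-04). At 1 h it had 15.2 and 16.4 FPKM in RelA(TA2) cells and 30.8 and 28.3 FPKM in RelA(wt) cells (-0.89 ± 0.08, adjusted p = 2.0e-04). At 2 h it had 18.1 and 16.5 FPKM in RelA(TA2) cells and 30.7 and 29.4 FPKM in RelA(wt) cells (-0.78 ± 0.08, adjusted p = 7.4e-04). The 6 RelA(TA2) libraries lay below the other 12, of which the RelA(S276A) libraries had 25.4 to 28.9 FPKM. The calls were kept without each library and by fragments (-0.94, -0.87 and -0.82), and no comparison of Perp with 0 h passed by either measure.

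Btg2 at 1 h was lower in both mutants, by 1.10 ± 0.15 in RelA(TA2) cells (adjusted p = 0.0028) and by 0.91 ± 0.15 in RelA(S276A) cells (adjusted p = 0.010), from the values given above. The RelA(S276A) call was lost without replicate 2 of either line at 1 h (-1.04 to -0.78). Fas at 2 h was lower in RelA(S276A) cells than in RelA(wt) cells (-1.003 ± 0.16, adjusted p = 0.0076), kept without each library, with the pairs far apart. With the highest transcript alone the same comparison gave -0.13 and was not called, and the RelA(wt) libraries at 2 h held 2 transcripts where the RelA(S276A) libraries held 1. By fragments Fas had 8.39 and 10.9 per M in RelA(S276A) cells and 19.2 and 19.1 per M in RelA(wt) cells. This log2 difference of -0.97 was called. By FPKM Fas was also lower in RelA(S276A) cells than in RelA(wt) cells before 2 h. The difference was -0.37 at 0 h (adjusted p = 0.33) and -0.64 at 1 h (adjusted p = 0.058), and neither passed in limma. Ccng2 at 1 h was lower in RelA(TA2) cells than in RelA(wt) cells (-0.48 ± 0.10, adjusted p = 0.034), a call lost in 5 of 18 refits (-0.57 to -0.38).

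Sesn1 was lower than in RelA(wt) cells at 0 h in RelA(TA2) cells (7.63 and 5.77 FPKM) and in RelA(S276A) cells (8.18 and 7.56 FPKM), with log2 differences of -1.79 ± 0.16 and -1.56 ± 0.16 (adjusted p = 1.9e-04 and 8.0e-04). By fragments these differences were -0.78 and -0.46, and both were called. The RelA(S276A) call by fragments was lost where a term for the replicate number was added to the fit. In RelA(TA2) cells it stayed lower at 1 h, with 5.13 and 5.04 FPKM (-0.85 ± 0.16, adjusted p = 0.018), and at 2 h, with 4.78 and 4.47 FPKM (-0.85 ± 0.16, adjusted p = 0.020). At those times FPKM and fragments gave nearly the same difference (-0.83 by fragments at both). The 1 h call was lost without any of its own 4 libraries (-0.86 to -0.83), and the 2 h call without RelA(wt) replicate 1 or either RelA(TA2) library (-0.95 to -0.76).

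The response to TNFα was also compared between lines directly, as the change in a mutant minus the change in RelA(wt) cells. By FPKM 0 of the 32 members passed in limma for RelA(TA2) at 1 h (0.316% of all genes called) and at 2 h (0.227%) or for RelA(S276A) at 1 h (0.227%) and at 2 h (0.17%). At an unadjusted p under 0.05 there were 6, 4, 3 and 3 members in these comparisons. By fragments 2 members passed for RelA(TA2) at 1 h (1.69% of all genes), 0 at 2 h (0.324%), 0 for RelA(S276A) at 1 h (0.235%) and 1 at 2 h (0.275%), with 12, 7, 2 and 4 at an unadjusted p under 0.05. The smaller rise of Btg2 at 1 h was -0.85 in RelA(TA2) cells, with a 95% interval of -1.32 to -0.38, and -0.51 in RelA(S276A) cells (-0.98 to -0.04), relative to the RelA(wt) change. The smaller rise of Fas at 2 h in RelA(S276A) cells was -0.64 (-1.13 to -0.15). Sesn1 went the other way, with 0.95 at 1 h and 0.94 at 2 h for RelA(TA2), and 1.13 and 1.31 for RelA(S276A). The last of these (0.81 to 1.82) had the smallest adjusted p of a member here, 0.071 in limma. These Sesn1 values use the RelA(wt) libraries at 0 h, which were assembled in 3 transcripts. None of these passed the adjustment, so it was not shown that they differ between lines.

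By fragments more genes passed, members and all genes alike, and 46 of the 48 FPKM calls were made in the same direction. At 1 h against 0 h 12 members were called in RelA(TA2) cells (10.0% of all genes), 11 in RelA(S276A) cells (6.0%) and 11 in RelA(wt) cells (6.73%). At 2 h 16 were called in RelA(TA2) cells (26.4%), 9 in RelA(S276A) cells (9.85%) and 12 in RelA(wt) cells (12.3%). Between RelA(TA2) and RelA(wt) cells 6 were called at 0 h (21.8%), 10 at 1 h (19.4%) and 11 at 2 h (21.7%). Between RelA(S276A) and RelA(wt) cells 2 were called at 0 h (15.6%), 5 at 1 h (21.2%) and 7 at 2 h (26.3%). The members' share lay above that of all genes at both times of TNFα in every line and between RelA(TA2) and RelA(wt) cells at 1 h and 2 h, and below it between those lines at 0 h and between RelA(S276A) and RelA(wt) cells at each time. By fragments the direction between lines was mixed. Higher in RelA(TA2) cells than in RelA(wt) cells were 3 members at 0 h (Bid, Plk2 and Polk), 0 at 1 h and 1 at 2 h (Bid). Higher in RelA(S276A) cells than in RelA(wt) cells were 0 members at 0 h, 1 at 1 h (Aen) and 3 at 2 h (Aen, Mdm2 and Plk2). Bax, Ccng1, Ddb2 and Trp53 passed in no comparison by either measure.

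**Figure D4:**
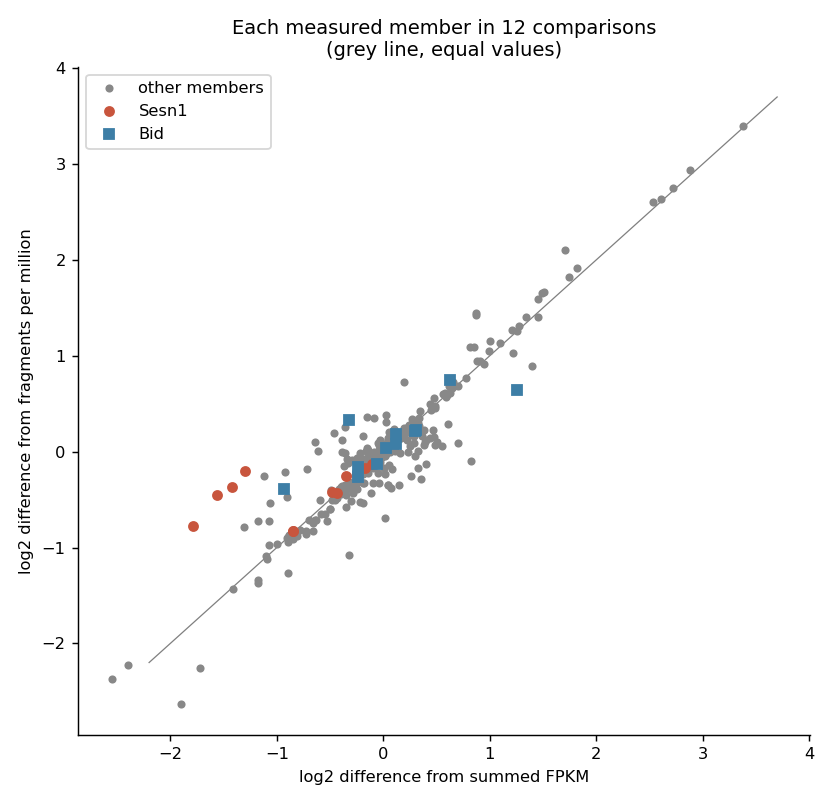
Log2 difference of the 32 measured members in the 12 comparisons with 0 h or with RelA(wt), from summed FPKM (x axis) and from fragments per M (y axis), with the grey line at equal values. The rises of Btg2 and Plk2 at 1 h lie near the line. The rise of Plk2 at 2 h in RelA(wt) cells lies off it, at 1.40 by FPKM and 0.89 by fragments. The Sesn1 points left of the line are the comparisons that use the RelA(wt) libraries before TNFα.

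The wider pathway was described by 4 lists, written like the member list with earlier results of these data known. Of 20 regulators of p53, 0 rose and 1 fell at 2 h in RelA(wt) cells by limma (1.41% and 0.486% of all genes), with 0 calls at 1 h and 2 regulators at an unadjusted p under 0.05 there. The gene that fell was Daxx, a nuclear adaptor that binds Mdm2, with 10.4 and 9.50 FPKM at 2 h and 13.9 and 14.9 FPKM at 0 h (-0.52 ± 0.10, adjusted p = 0.029). At 1 h the smallest adjusted p was 0.21, for the kinase Dyrk2 (4.07 and 4.12 FPKM at 1 h, 5.48 and 5.15 FPKM at 0 h). By fragments 1 regulator was called at 1 h (6.73% of all genes) and 6 at 2 h (12.3%) in RelA(wt) cells. Of 31 further p53 targets, 2 rose at 1 h (1.04% of all genes) and 1 at 2 h (1.41%) in RelA(wt) cells. Dusp5, a phosphatase of ERK, had 137 and 141 FPKM at 1 h and 52.4 and 43.1 FPKM at 0 h (1.54 ± 0.16, adjusted p = 3.3e-04). Thbs1, the matrix protein thrombospondin, had 132 and 131 FPKM at 1 h, 143 and 146 FPKM at 2 h and 34.8 and 38.9 FPKM at 0 h (1.83 ± 0.20 and 1.96 ± 0.20, adjusted p = 5.1e-04 and 4.8e-04). Both also rose at 1 h in the mutant lines, and the list median stayed within 0.1 of 0 at both times in RelA(wt) cells.

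Of 18 measured genes of the apoptosis machinery, 1 rose and 2 fell at 1 h in RelA(wt) cells (1.04% and 0.583% of all genes), and 1 rose and 1 fell at 2 h (1.41% and 0.486%). Bmf, a BH3-only protein, had 5.91 and 4.28 FPKM at 0 h in RelA(wt) cells and was listed at 0 in all 12 libraries after TNFα, in each line. By fragments it was low before TNFα, with 6.76 and 6.13 per M in RelA(wt) cells. A listing at 0 means that no assembled transcript was placed on the gene. The reason was not tested, so the size of the Bmf fall is not known. Casp2, an initiator caspase, had 3.86 and 4.27 FPKM at 1 h and 9.55 and 8.36 FPKM at 0 h (-1.05 ± 0.16, adjusted p = 0.0069). Bcl2l1, which encodes the survival protein Bcl-xL and is a known NF-κB target, had 26.0 and 26.3 FPKM at 1 h, 31.4 and 31.8 FPKM at 2 h and 19.6 and 18.6 FPKM at 0 h (0.44 ± 0.09 and 0.71 ± 0.09, adjusted p = 0.039 and 0.0022). The 1 h pair of Casp2 and both later pairs of Bcl2l1 did not overlap their pairs at 0 h.

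Of 18 cell cycle genes that p53 is known to lower through p21, 0 passed after TNFα in RelA(wt) cells by limma, with 0 at an unadjusted p under 0.05 at 1 h and 5 at 2 h, where the smallest adjusted p were 0.54 for Mcm5 at 1 h and 0.22 for Mki67 at 2 h. By fragments 0 were called at 1 h and 1 fell at 2 h. Between lines their values lay higher in RelA(S276A) cells than in RelA(wt) cells at each time, with list medians of 0.51 at 0 h, 0.57 at 1 h and 0.65 at 2 h beside 0.01, 0.03 and 0.01 for all genes. By FPKM 1, 2 and 2 of the 18 passed (2.14%, 3.21% and 3.44% of all genes in either direction), and by fragments 11, 14 and 17 of the 18 (15.6%, 21.2% and 26.3%), none of them lower. Mcm6 was called by FPKM at each time, with 74.0 and 67.4 FPKM in RelA(S276A) cells and 52.05 and 45.9 FPKM in RelA(wt) cells at 0 h. Mki67, the proliferation marker, was called at 1 h and 2 h. At 1 h it had 18.7 and 17.9 FPKM in RelA(S276A) cells and 11.1 and 11.4 FPKM in RelA(wt) cells. Cdkn1a at 0 h differed by 0.06 ± 0.11 between the same lines, with a 95% interval of -0.19 to 0.31. Its difference was 0.03 ± 0.11 at 1 h (-0.22 to 0.28) and 0.33 ± 0.11 at 2 h (0.08 to 0.58), and none of the 3 passed. By fragments Cdkn1a at 2 h had 274 and 244 per M in RelA(S276A) cells and 260 and 256 per M in RelA(wt) cells. These pairs overlap, so the 2 h difference by FPKM was not seen by fragments. In RelA(TA2) cells the list median relative to RelA(wt) cells was 0.12 at 0 h, 0.30 at 1 h and 0.47 at 2 h. At 2 h 1 gene was called by FPKM (Mcm6, 3.18% of all genes) and 11 by fragments (21.7%).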

How the data were processed

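RNA was sequenced on an Illumina instrument, and the authors used CASAVA 1.8.2, TopHat2 2.0.5, Bowtie2 2.0.0.7 and Cufflinks 2.0.2 on mm10. The deposited files hold, for each library, the FPKM of each assembled transcript with its confidence bounds, written as attribute text. FPKM were summed per gene over the transcripts that shared 50% or more of their own length, or of the gene's exonic length, with its exons. Fragments were recovered from FPKM and its bounds where a locus held 1 transcript (85.5 to 87.0% whole within 0.02) and from a length curve elsewhere. The depth was 25.3 to 31.3 M mapped fragments per library.

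limma 3.58.1 in R 4.3.3, with a variance trend, was fitted to log2(FPKM + 0.5) over 9 conditions and 18 libraries (9 residual degrees of freedom), for the 12342 genes that reached 1 FPKM in 2 or more libraries. Tests were two-sided, with Benjamini-Hochberg adjustment over all genes tested within each of 16 comparisons. FPKM are not counts, so no count model was used. The fit was tested on simulated data. pandas 2.3.3 under Python 3.11.15, beside numpy 2.4.6, made the tables. The comparisons of both times share the 0 h libraries of a line, and those of both mutants share the RelA(wt) libraries. Trp53, Mdm2, Cdkn1a and every member that passed a test are given per library, the others by their range, and from each other list up to 3 genes with the smallest adjusted p in RelA(wt) cells. Alternatives were other amounts added, other filters, other scalings, the highest transcript, recovered fragments, a replicate block, the compared groups only and leaving out each library. The members and lists were chosen with earlier results of these data known. No 2 libraries held identical values. Promoter windows came from RefSeq on GRCm38.p6, the assembly that mm10 names.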

Additional observations from a re-analysis of the deposited data

Results flagged for a closer look

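By recovered fragments, the response to TNFα of 3 members differed between a mutant line and RelA(wt) cells in limma's test of the difference itself, and none of the 3 passed by FPKM. The change of Mdm2 from 0 h to 1 h was smaller in RelA(TA2) cells than in RelA(wt) cells by a log2 difference of -0.55, and by FPKM this difference was -0.50. The change of Polk over the same hour differed by -0.72 in RelA(TA2) cells relative to RelA(wt) cells, and by FPKM by -0.70. The change of Bid from 0 h to 2 h differed by -0.61 in RelA(S276A) cells relative to RelA(wt) cells. By FPKM the Bid difference was -1.23, with the RelA(wt) library at 66.8 FPKM that was assembled in 3 transcripts. By fragments Bid had 44.2 and 45.2 per M at 2 h in RelA(S276A) cells and 62.3 and 55.2 per M in RelA(wt) cells.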

How the results depend on the processing

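No member call reversed under any alternative, and 48 of 48 were kept with 0.1 FPKM added or a filter of 5 FPKM, 47 with 1 FPKM added or no filter, 46 with median-of-ratios scaling, 34 with the highest transcript only and 6 with the compared groups only.

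With the compared groups only, members called were 0 at 1 h and 0 at 2 h in RelA(TA2), 2 and 0 in RelA(S276A), 0 at 2 h in RelA(wt), 0 for both mutants against RelA(wt) at each time, and 1 for the RelA(S276A) response at 1 h. With recovered fragments they were 12 and 16 in RelA(TA2), 11 and 9 in RelA(S276A), 11 and 12 in RelA(wt), 6, 10 and 11 for RelA(TA2) against RelA(wt) at 0, 1 and 2 h, 2, 5 and 7 for RelA(S276A), 2 for the RelA(TA2) response at 1 h and 1 for the RelA(S276A) response at 2 h. The highest transcript only gave 2 in RelA(S276A) at 2 h, 0 for RelA(S276A) against RelA(wt) at 2 h and 2 for the RelA(TA2) response at 1 h. Adding 0.1 FPKM or a filter of 5 FPKM gave 2 for RelA(S276A) against RelA(wt) at 2 h, and median-of-ratios scaling gave 2 at 1 h.

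The replicate numbers did not pair the libraries: over 36 pairs of conditions the correlation of the replicate differences lay between -0.08 and 0.08, with 0 over 0.1 (by fragments -0.08 to 0.13, with 2 over 0.1). With a replicate block 42 of the 48 calls were kept, RelA(wt) at 2 h had 4 members called, and the other counts were within 1.5 times. Fragments with the block, an alternative chosen after seeing the data, gave 11 and 16 in RelA(TA2), 11 and 9 in RelA(S276A) and 11 and 11 in RelA(wt). Against RelA(wt) at 0, 1 and 2 h they gave 6, 9 and 11 for RelA(TA2) and 1, 4 and 6 for RelA(S276A). For the responses they gave 2 for RelA(TA2) at 1 h and 1 for RelA(S276A) at 2 h. The cause of these differences was not tested.

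Leaving out 1 library gave 3 to 6 members at 1 h and 5 to 9 at 2 h in RelA(TA2), 4 to 6 and 1 to 4 in RelA(S276A), and 4 to 9 and 3 to 7 in RelA(wt). Against RelA(wt) it gave 2 to 3, 2 to 4 and 1 to 3 for RelA(TA2) at 0, 1 and 2 h, and 1, 0 to 2 and 1 to 4 for RelA(S276A). The responses gave 0 to 2 at both times for RelA(TA2), and 0 at 1 h and 0 to 1 at 2 h for RelA(S276A).

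The precision is set by 2 libraries per condition, and 1836 tested genes (14.88%) were listed at 0 in some library.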
